A study of Mus musculus with 4 samples.

Results

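The 9 genes described here are Sertoli cell transcription factors and hormone signals: Sox9, Wt1, Gata4, Gata1, Amh, Fshr, Dhh, Inha and Inhbb. They were taken by gene symbol, and all 9 were found among 24388 symbols. Poly(A) RNA had been sequenced from spermatocyte suspensions of C57BL/6 mice in 2 groups, each with 2 libraries. The genotype label is control in one group and Np95 knock out in the other, and all 4 libraries carry the age label 21 dpc, an abbreviation the labels do not spell out. The column headers write cKO for the knockout, and the deleted part and any driver of the deletion are not named in the labels or headers. The suspensions came from accutase digestion of chopped seminiferous tubules and a mesh, with no sorting step in the labels. Np95 is the protein of the gene Uhrf1, which brings the maintenance DNA methyltransferase to newly copied CpG sites. The labels do not say whether the replicates are separate animals, and a p-value here speaks only of the spread between libraries, possibly a technical one.

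Sertoli cells are the somatic nurse cells of the seminiferous tubule, and germ cells develop along their sides. SOX9 sets their fate in the embryonic gonad, and WT1, GATA4 and the nuclear receptor NR5A1 act with it, in part on the gene for anti-Müllerian hormone (AMH). Mature Sertoli cells answer follicle-stimulating hormone through FSHR, send Desert hedgehog (DHH) to the Leydig and peritubular cells, and secrete inhibin, which lowers FSH release from the pituitary.

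The check of the labels came first. Uhrf1 had an RPKM of 3.11 and 3.29 in control replicates 1 and 2 and of 1.87 and 1.48 in knockout replicates 1 and 2 (limma adjusted p = 0.0031). RPKM divides a gene's reads by its length and by the total of its library. Steps between low values fit whole reads only when the whole gene span, introns included, is taken as the length, so levels of different genes depend on their introns. Those steps correspond to about 11600000, 25600000, 22300000 and 9600000 reads, mostly in pairs, in control replicates 1 and 2 and knockout replicates 1 and 2, so each group held 1 deeper and 1 shallower library. Over all 9099 genes with an RPKM of 1 or more in at least 2 libraries, 43.3% were called higher and 30.5% lower in the knockout, and the median log2 fold change was 0.14. Calls are at a Benjamini-Hochberg adjusted p of 0.05 in limma on log2(RPKM + 1). After scaling each library to the same RPKM sum that median was 0.46 and 77.3% of calls were higher, against 58.7% as deposited, and with equal medians they were -0.05 and 46.3%.

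All 9 genes were higher in both knockout libraries than in either control library. Without a filter on low values, limma called 9 of 9 higher, where 34.8% of 21208 genes were called higher and 16.2% lower. With the filter, 8 of the 9 genes were tested and 8 were called higher, beside the 43.3% of all tested genes. Fshr did not pass the filter, and Wt1 and Gata4 passed it only through the knockout libraries. When an RPKM of 1 was required in both control libraries instead, 6 of the 9 genes were tested and 6 were called higher, where 32.5% of 7298 genes were. The groups did not overlap with the knockout higher for 9 of 9 genes, as for 53% of all genes without the filter. The ratio of mean RPKM ran from 2.48 for Dhh to 8.38 for Sox9, with a median of 3.94, where the median ratio over all tested genes was 1.14. In bulk RNA, more cells of a type and more RNA per cell cannot be told apart.

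**Figure D1:**
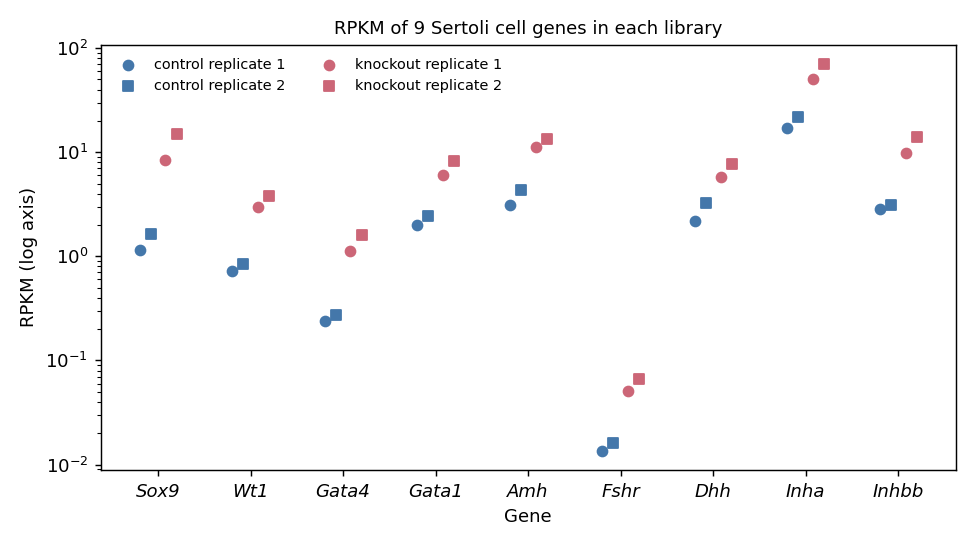
RPKM (log axis) of each of the 9 genes in the 4 libraries, with circles for replicate 1, squares for replicate 2, blue for control and red for knockout. For each gene both red points lie above both blue points, from Dhh (2.20 and 3.24 against 5.76 and 7.70) to Sox9 (1.15 and 1.63 against 8.41 and 14.9).

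Stretches of DNA before a listed start of 3 of the genes show how differently these starts are built. RefSeq promoters on GRCm38.p6 matched 5 of the 9 genes (Dhh, Fshr, Gata1, Inha and Inhbb), and 3 are printed for their range of CpG content, the dinucleotide on which UHRF1 acts. Each line gives the 250 bases before the start, 5′ to 3′ on the gene's strand, with each CG in capitals.
Inhbb, chr1:119422249-119422498, minus strand: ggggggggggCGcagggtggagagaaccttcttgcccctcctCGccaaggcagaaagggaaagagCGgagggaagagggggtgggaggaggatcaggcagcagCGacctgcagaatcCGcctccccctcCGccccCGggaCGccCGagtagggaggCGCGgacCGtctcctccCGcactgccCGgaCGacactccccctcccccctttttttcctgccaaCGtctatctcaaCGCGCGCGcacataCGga
Fshr, chr17:89200676-89200925, minus strand: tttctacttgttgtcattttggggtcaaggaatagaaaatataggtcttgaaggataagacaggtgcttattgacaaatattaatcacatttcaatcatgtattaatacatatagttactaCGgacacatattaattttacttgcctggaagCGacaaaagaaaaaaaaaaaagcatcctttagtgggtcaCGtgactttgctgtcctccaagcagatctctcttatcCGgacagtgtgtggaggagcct
Gata1, chrX:7967911-7968160, minus strand: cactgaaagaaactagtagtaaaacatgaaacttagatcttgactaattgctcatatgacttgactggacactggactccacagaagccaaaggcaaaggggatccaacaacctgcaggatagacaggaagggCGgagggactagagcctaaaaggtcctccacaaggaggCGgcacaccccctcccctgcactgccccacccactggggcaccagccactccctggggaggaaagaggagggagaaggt
The Inhbb window held 21 CpGs at 68.0% GC, Fshr 4 at 36.8% and Gata1 2 at 54.0%, and those of Dhh and Inha held 9 and 4. Over all 32851 promoter windows in the table the median was 6 CpGs and 52.4% GC. RPKM rose 4.02-fold for Inhbb, 3.94-fold for Fshr, 3.23-fold for Gata1, 2.48-fold for Dhh and 3.11-fold for Inha. Inhbb had both the most CpGs and the highest ratio of these 5 genes, while Dhh, second in CpGs, had the lowest ratio. RefSeq extends the genes Gata1 and Inha upstream of these windows, so both windows lie within the gene. Other starts of these genes exist that are not shown, and the windows need not hold the promoter used here. No methylation was measured in these libraries.

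Words bound by regulators of Sertoli genes were looked for on both strands of the same windows. A GATA word (any of the letter strings AGATAA with its variant AGATAG, and TGATAA with its variant TGATAG) stood in 1 of the 5 windows, Inhbb, at 27 to 22 bases before the start on the opposite strand, and in 26.5% of all windows. The E-box CACGTG stood in the Fshr window, at 61 to 56 bases before the start, and in 6.02% of all windows. NR5A1 words (AAGGTCA with its variant AAGGCCA, in 9.09% of all windows), SOX words (AACAAT with the longer AACAAAG, in 13.8%) and cyclic AMP response words (TGACGTCA with the shorter TGCGTCA, in 3.23%) did not occur in the 5 windows. These are matches of letters, not measured binding, and the Gata1 and Inha windows lie within the gene.

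Among the transcription factors Sox9, which directs Sertoli cell fate, changed most. Its RPKM was 1.15 and 1.63 in control replicates 1 and 2 and 8.41 and 14.9 in knockout replicates 1 and 2, or 1.39 ± 0.340 against 11.6 ± 4.56 (mean ± SD, n = 2). The lower knockout library was 5.16 times the higher control library. The log2 fold change, 2.36 (SE 0.27, limma adjusted p = 0.0016), was the fourth largest, rank 4 of 9099 tested genes. About 74 and 232 reads lay behind the control values and about 1040 and 795 behind the knockout values, if 1 step is 1 read.

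Wt1 encodes the zinc finger factor that keeps Sertoli cells in their state. It had 0.717 and 0.847 RPKM in the control libraries and 3.01 and 3.76 in the knockout libraries, 4.33-fold higher in the mean (log2 fold change 1.29, SE 0.11, limma adjusted p = 0.0014). The spread within each group was small beside the gap between them. Gata4, a zinc finger partner of SOX9 and WT1, had 0.239 and 0.273 RPKM in the control and 1.13 and 1.61 in the knockout, 5.36-fold higher (log2 fold change 0.91, SE 0.12, limma adjusted p = 0.0020). Its log2 fold change was the smallest of the 8 tested genes and its ratio the second largest, since the added 1 weighs most on low values. Leydig cells also express Gata4.

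Gata1, the X-linked GATA factor of Sertoli cells and red cell precursors, had 1.99 and 2.41 RPKM in the control and 6.07 and 8.15 in the knockout. The 3.23-fold difference came to 1.33 on the log2 scale (SE 0.15, limma adjusted p = 0.0017). Of 265 X-linked genes tested, 94.7% were called higher, beside 43.3% of all tested genes. Genes could pass that filter through the knockout libraries alone, and a share with the control requirement is not given for the X-linked genes. The X-linked genes had a median log2 fold change of 1.06 and a median ratio of 3.35. Gata1 lay above that median by log2 fold change (1.33) and below it by ratio (3.23). The part of the X chromosome as a whole in its rise was not tested. Of the erythroid genes listed (globins, Alas2, Klf1 and Epor), 4 of 7 passed the filter and 0 were called. Without the filter 1 of 7 was called higher, Alas2, at 0.0612 and 0.0765 RPKM against 0.157 and 0.256 (limma adjusted p = 0.048), where 34.8% of all genes were. Their summed RPKM was 63.6 and 73.3 in the control and 44.7 and 95.7 in the knockout, so the groups overlapped.

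**Figure D2:**
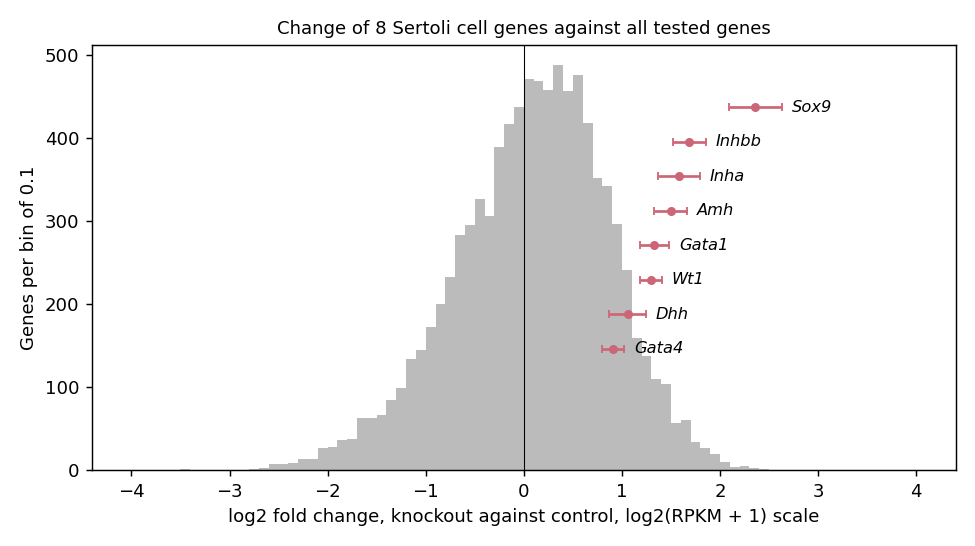
Grey bars count the 9099 tested genes by log2 fold change (knockout against control, log2(RPKM + 1) scale, bins of 0.1). Red points are 8 Sertoli cell genes with their standard errors, at arbitrary heights, and they run from 0.91 for Gata4 to 2.36 for Sox9, to the right of the median of all genes at 0.14.

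The secreted hormones and their subunits rose as well. Inha codes for the alpha subunit found in inhibins alone. It had 16.9 and 21.9 RPKM in the control and 50.6 and 70.4 in the knockout, 19.4 ± 3.505 against 60.5 ± 14.0 (mean ± SD, n = 2), 3.11-fold. Inhbb, the beta B subunit that pairs with alpha to give inhibin B and with itself to give activin B, had 2.85 and 3.14 RPKM in the control and 9.93 and 14.1 in the knockout. The log2 fold changes were 1.58 for Inha (SE 0.21, limma adjusted p = 0.0022) and 1.69 for Inhbb (SE 0.17, limma adjusted p = 0.0015). The other beta subunit, Inhba, was very low, listed at 0 and 0.0122 RPKM in the control and at 0.0257 and 0.122 in the knockout, and was not called without the filter (limma adjusted p = 0.20).

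Amh, the hormone that removes the Müllerian ducts in the male fetus and that Sertoli cells turn down as they mature, had 3.12 and 4.38 RPKM in the control and 11.1 and 13.5 in the knockout. That is 3.29-fold (log2 fold change 1.495, SE 0.17, limma adjusted p = 0.0016), from about 89 and 274 reads in the control and 605 and 319 in the knockout. The gene Sf3a2 ends 319 bases before Amh on the same strand, and its RPKM was 13.5 and 12.4 in the control and 13.7 and 12.8 in the knockout, so the groups overlapped for this neighbour. Other genes close to the 9 were higher in both knockout libraries, as were 53% of all genes without the filter. Jsrp1, 848 bases beyond the end of Amh, had 0.406 and 0.442 RPKM in the control and 1.73 and 1.88 in the knockout. Obsl1, 625 bases upstream of Inha, had 1.46 and 1.62 against 4.82 and 6.39, and Wt1os, 19 bases upstream of Wt1, 0.0771 and 0.117 against 0.381 and 0.417. BC006965, 248 bases upstream of Sox9, had 0.00540 and 0.00491 against 0.0256 and 0.0339. All 3 of these upstream genes lie on the opposite strand. Dhh, the hedgehog ligand of Sertoli cells, had the smallest ratio of the 9. It had 2.20 and 3.24 RPKM in the control and 5.76 and 7.70 in the knockout, 2.48-fold (log2 fold change 1.06, SE 0.19, limma adjusted p = 0.0052). Dhh overlaps Rhebl1 over 3389 bases and the antisense gene Gm49442 over 1825 bases in the GENCODE annotation, so some reads cannot be assigned. No RPKM was listed for Gm49442 under that name. Rhebl1 had 0.447 and 0.343 RPKM in the control and 0.537 and 0.468 in the knockout, so it too was higher in both knockout libraries.

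Fshr, the receptor through which FSH acts on Sertoli cells, had the lowest values: 0.0135 and 0.0161 RPKM in the control and 0.0504 and 0.0663 in the knockout. Its span of 215724 bases, nearly all intron, lowers its RPKM. About 34 and 89 reads lay behind the control values and 242 and 138 behind the knockout values. The means differed 3.94-fold, and the fit without the filter called Fshr higher (log2 fold change 0.06 on the compressed scale, SE 0.01, limma adjusted p = 0.020).

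The replicates were ordered alike for every one of the genes. Knockout replicate 2 was above knockout replicate 1 in 9 of 9 genes, by 1.22-fold for Amh to 1.77-fold for Sox9, where 52% of all tested genes were above. Control replicate 2 was above control replicate 1 in 9 of 9 genes too, by 1.10-fold to 1.47-fold, where 53% of all tested genes were. The 9 genes thus differed between libraries of 1 group in the same direction, by less than between the groups.

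Setting each gene against Inha in its own library removes the scaling between libraries. Sox9 was 6.77% and 7.43% of Inha in the control and 16.6% and 21.1% in the knockout, 2.65 times as much. Wt1 was 4.23% and 3.87% of Inha in the control and 5.95% and 5.35% in the knockout, and Gata4 1.41% and 1.24% against 2.23% and 2.29%. These 3 transcription factors, with Inhbb and Fshr, had ratios to Inha that were higher in both knockout libraries, 5 of the 8 other genes. Of the 7 others that passed the filter, 4 did, where 6.62% of all tested genes did. Wt1 and Gata4 among them passed it only through the knockout libraries. Of the 5 with an RPKM of 1 or more in both control libraries 2 did, Sox9 and Inhbb. No share over all genes was computed for the 8 or for these 5. Inha itself was 3.11-fold higher, so a gene had to rise more than Inha to stand higher against it. The groups overlapped for Amh, at 18.4% and 19.98% of Inha in the control and 22.0% and 19.2% in the knockout. They overlapped for Gata1 too, at 11.7% and 11.0% against 12.0% and 11.6%. Dhh was lower against Inha in both knockout libraries, at 11.4% and 10.9% against 13.0% and 14.8% in the control, as were 81.8% of tested genes.

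In a limma fit of each gene's log2(RPKM + 0.1) minus that of Inha, a measure chosen after the values were seen, Sox9 was the one gene of the 7 tested that passed the test for a change other than that of Inha. Its difference was 1.31 (SE 0.40, limma adjusted p = 0.0017), where 0.802% of genes were called higher than Inha's change and 70.8% lower. That call ended with a pseudocount of 1 (0.78, limma adjusted p = 0.052), without control replicate 1 (adjusted p = 0.15) and without control replicate 2 (adjusted p = 0.085). The differences of the other 6 genes ran from -0.34 for Dhh to 0.40 for Gata4, with adjusted p of 0.39 to 0.98, and standard errors near 0.4 leave room for changes of that size either way. Every gene in this fit shares the error of Inha, while limma pools the spread over genes as if their errors were separate. Without the trend the standard error was 0.39 for each of the 7 genes. The p-values and the shares called in this fit can therefore not be taken at face value.

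**Figure D3:**
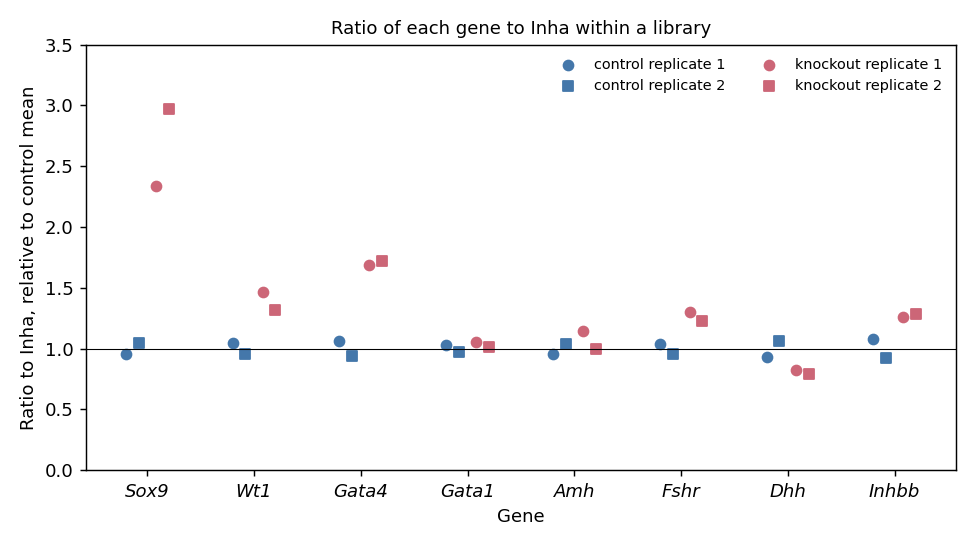
RPKM of 8 genes divided by that of Inha in the same library and by the control mean of that ratio (linear axis from 0), with symbols as in the plot of RPKM by library. Sox9 stands highest in both knockout libraries (16.6% and 21.1% of Inha against 6.77% and 7.43% in the control), Gata1 and Amh overlap between groups, and Dhh lies below its control values.

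Genes with the profile most like that of Sox9 were found by the Euclidean distance of log2(RPKM + 1), centred on its mean over the 4 libraries, among 9098 other tested genes. The nearest 5 were Sox4 (distance 0.11), a related SOX factor, the microRNA row Mir7219 (0.19), the X-linked deubiquitinase gene Otud6a (0.22), Jund (0.28), of the AP-1 factors, and Irf2bpl (0.29). Sox4 had 1.68 and 2.52 RPKM in the control and 10.9 and 18.1 in the knockout, and like Sox9 it was highest in knockout replicate 2. Of the Sertoli genes, Inhbb ranked 92, Inha 136 and Amh 209 by this distance, while Gata4 ranked 1138. Distance over 4 libraries describes shape and size of change alone.

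Partners of Sertoli cell determination were described from a list of 17 genes, of which 7 passed the filter and 7 were called higher, beside 43.3% of all tested genes. Cbx2, Dmrt1 and Zfpm1 passed only through the knockout libraries, so the filter favoured that direction. With an RPKM of 1 required in both control libraries, 3 were tested and 3 were higher, beside 32.5% of all genes. Without the filter 11 of 17 were higher, 1 lower and 5 not called, beside 34.8% higher and 16.2% lower over all genes, with a median log2 fold change of 0.28 where that of all genes was 0.04. Nr5a1, the nuclear receptor that acts with SOX9, had 1.19 and 1.30 RPKM in the control and 4.397 and 5.33 in the knockout (limma adjusted p = 0.0014). Sox8, the close relative that backs up SOX9, had 1.17 and 1.92 against 7.05 and 10.8, a 5.77-fold rise, the largest ratio among the tested genes of this list. Nr0b1, an X-linked nuclear receptor, rose 2.91-fold, the Polycomb gene Cbx2 3.84-fold and Dmrt1 4.25-fold. Dmrt1 is also a gene of spermatogonia, and Nr5a1 and Nr0b1 are also Leydig cell genes. Zfpm2, the cofactor of GATA4, had 0.111 and 0.0945 RPKM in the control and 0.126 and 0.106 in the knockout, and its groups overlapped. The gene called lower was Emx2, a homeobox gene of the early gonad, at 0.478 and 0.528 against 0.0942 and 0.0938 (limma adjusted p = 0.010 without the filter), named after its value was seen. On the ovarian side, Foxl2 was listed at 0 in all 4 libraries, and of Wnt4, Rspo1 and Fst the fit without the filter called 1 higher, Fst.

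Receptors and relays of the hormones were followed in 4 lists. For AMH reception 3 of 8 genes passed the filter and 3 rose, beside 43.3% of all tested genes. Smad4 passed only through the knockout libraries. Amhr2, the AMH receptor, had 8.15 and 9.28 RPKM in the control and 26.4 and 33.2 in the knockout, 3.41-fold, close to the 3.29-fold of Amh itself (limma adjusted p = 0.0014). The shared SMAD genes Smad4 and Smad5 rose 3.39-fold and 1.83-fold. Without the filter 5 of the 8 genes were called higher and 2 lower, beside 34.8% and 16.2% of all genes. Those lower were Smad1 and Smad9, which were chosen for mention after their values were seen. Smad1 had 0.833 and 0.692 RPKM in the control and 0.476 and 0.384 in the knockout.

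Among activin and inhibin partners 3 of 14 genes passed the filter and 3 rose, beside 43.3% of all tested genes. Smad2 and Smad4 passed only through the knockout libraries, so 1 gene, Fstl3, was left with an RPKM of 1 required in both control libraries, and it was higher. Fstl3, a secreted binder of activin, rose 3.49-fold from 1.45 and 1.71 RPKM to 4.87 and 6.18 (limma adjusted p = 0.0014), Smad2 2.45-fold and Smad4 as above. The activin receptor genes Acvr2a and Acvr2b lay under the filter. Acvr2a had 0.293 and 0.286 RPKM against 0.465 and 0.562, and Acvr2b 0.302 and 0.331 against 0.779 and 0.947. The receptor genes Acvr1b and Acvr1c, named after their values were seen, lay under it too and did not rise. Acvr1b had 1.06 and 0.920 RPKM against 0.967 and 0.947, and Acvr1c 0.0385 and 0.0201 against 0.00944 and 0.0126. Neither was called without the filter (limma adjusted p = 0.81 and 0.15). Without the filter 9 of these 14 genes were called higher, Acvr2a and Acvr2b among them, and 0 lower, beside 34.8% and 16.2% of all genes.

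In the FSH signal relay 4 of 12 genes passed the filter, 2 rose and 2 were not called, beside 43.3% higher over all tested genes. Gnas, whose main product is the stimulatory G protein alpha subunit, rose 2.96-fold from 2.21 and 2.30 to 6.14 and 7.19 RPKM (limma adjusted p = 0.0014). Prkaca, the catalytic subunit of protein kinase A, rose 1.32-fold (adjusted p = 0.028). Without the filter 7 of 12 were called higher and 0 lower, where 34.8% and 16.2% of all genes were.

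For the hedgehog pathway 2 of 14 genes passed the filter and 1 was called higher, beside 43.3% of all tested genes. That gene, the co-receptor Gas1, rose 3.74-fold, from 1.15 and 0.818 to 2.76 and 4.62 RPKM (limma adjusted p = 0.0048). Ptch1, receptor and target of the pathway, had 0.0580 and 0.0879 RPKM in the control and 0.385 and 0.497 in the knockout, and Smo, the transducer, 0.240 and 0.218 against 0.801 and 0.961. Without the filter 8 of 14 were called higher, with Ptch1 and Smo among them, and 0 lower, beside 34.8% and 16.2% of all genes. With an RPKM of 1 required in both control libraries, 0 genes of this list were tested. Ptch1 is made by cells that receive DHH, and which cells made it here was not measured.

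Markers of other cells moved in the same libraries, and their counts stand beside 43.3% of all tested genes called higher with the filter, 34.8% without it and 32.5% with an RPKM of 1 required in both control libraries. Summed RPKM of the 9 genes was 29.2 and 37.8 in the control and 96.0 and 134 in the knockout. Sertoli support proteins summed to 164 and 190 against 460 and 549, and 13 of 13 tested rose, 10 of 10 under the control requirement, Aard 2.88-fold and Clu 3.29-fold. Leydig markers summed to 19.2 and 19.1 against 60.5 and 50.4, and 5 of 6 tested rose (Insl3 3.13-fold, Star 1.96-fold). Without the filter 4 of 8 were called, and Star (limma adjusted p = 0.11) and Cyp11a1 (0.081) lost their calls. Cyp11a1 passed only through the knockout libraries, and with the control requirement 4 of 4 were called. The tested Leydig gene not called with the filter, Cyp17a1, had 1.80 and 0.622 RPKM against 1.72 and 5.81, so its groups overlapped. Macrophage markers summed to 5.10 and 6.46 against 16.02 and 12.5, with 5 of 5 tested higher, C1qa 2.48-fold and C1qc 3.04-fold. C1qb and Cd68 passed only through the knockout libraries, 3 of 3 were higher with the control requirement, and without the filter 6 of 8 were called and C1qa was not (limma adjusted p = 0.090). Peritubular markers summed to 2.49 and 2.67 against 4.59 and 4.72, where Tagln, the 1 gene tested, rose 1.51-fold and Acta2 had a ratio of 2.50. Endothelial markers were low throughout, at 0.0823 and 0.128 against 0.266 and 0.331 in sum, with Cdh5 and Kdr the most abundant.

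Pachytene markers of the spermatocytes named in the labels were present in every library. Their sum went the other way, from 599 and 586 to 208 and 149. Ldhc (217 and 210 RPKM in the control) and Pgk2 (132 and 139) weighed most in it. Of 11 tested, 7 fell, 1 rose and 3 were not called, beside 30.5% lower and 43.3% higher over all tested genes. Ldhc had a ratio of 0.236 and Pgk2 of 0.148. The list did not move as 1 class: Sycp1 rose 1.58-fold, and Sycp2 (ratio 0.845), Sycp3 (1.05) and Hormad1 (1.17) were not called. Spermatogonial markers summed to 47.3 and 51.7 against 45.3 and 44.0, where 4 of 5 tested rose and Id4 fell (3 and 1 of 4 with the control requirement). Most of that sum was Id4, at 39.0 and 41.7 RPKM in the control and 24.6 and 21.6 in the knockout. Without the filter 8 of 10 were called higher and 1 lower, beside 34.8% and 16.2% of all genes. Dissociation and stress genes summed to 20.6 and 26.1 in the control and 79.8 and 118 in the knockout, and 10 of 10 tested rose, Jund 4.71-fold and Ier2 3.10-fold. Fos, Dusp1 and Ier3 passed only through the knockout libraries, and with the control requirement 5 of 5 were called higher. Like the 9 Sertoli genes, this sum was highest in knockout replicate 2. The part of these other cells, of germ cell content and of the stress genes in the rise of the 9 genes was not tested.

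**Figure D4:**
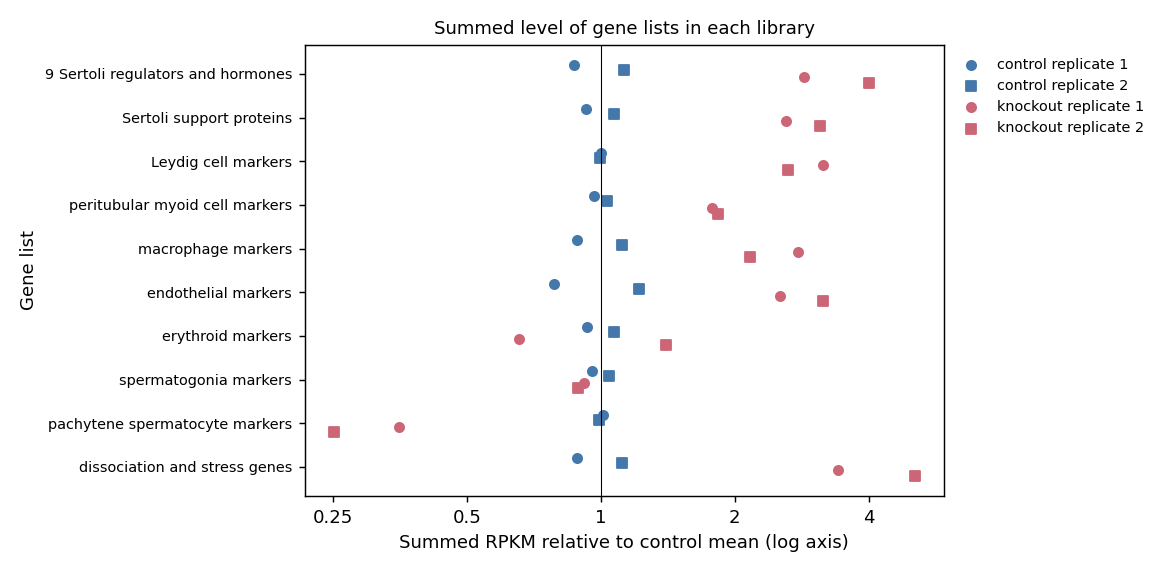
Summed RPKM of each gene list in each library relative to its control mean (log axis), with the 9 Sertoli regulators and hormones at the top and symbols as in the plot of RPKM by library. Both knockout libraries lie to the right for the 9 genes (96.0 and 134 against 29.2 and 37.8), the support proteins, Leydig, peritubular, macrophage and endothelial markers and the stress genes, on both sides for the erythroid markers, and to the left for the pachytene markers (208 and 149 against 599 and 586).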

How the data were processed

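The authors deposited 1 table of RPKM values with a column for each of 4 libraries (2 control, 2 knockout), per the file headers. Bowtie2 and the mouse build mm9 are named, without a version, per the submitters' processing notes. For the counting program and the annotation, nothing is stated in the labels or headers. The poly(A) library kit does not mark strand, so antisense reads cannot be separated.

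Columns were matched to samples by name. From 24444 rows, 27 with a date for a symbol were left out, and of rows with a repeated symbol the one with the highest mean was kept (29 left out). Multiplied by gene span (GRCm38.p6, genes with 1 RefSeq transcript), 63.5% to 67.4% of values between 0.5 and 8 reads lay within 0.05 of a whole number, against 12.3% to 13.1% by exon length and 10% by chance. Most whole values (71.2% to 74.6%) were even, as for read pairs. Not all values came out whole, so no count test was run.

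Genes with an RPKM of 1 or more in at least 2 libraries were tested on log2(RPKM + 1) with limma 3.58.1 (R 4.3.3, trended variance), two-sided, and p was adjusted by Benjamini-Hochberg over all 9099 genes. With 2 libraries a group, exact permutation gives no p under 0.333. Promoters are RefSeq's, and gene overlaps are from GENCODE on GRCm38.

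The genes and lists were chosen with earlier results of these data known. The naming rule took the 9 genes, Uhrf1, 9 set receptors and partners, up to 4 called genes per pathway list with the smallest p, the 2 most abundant genes of each other list, and the 5 genes nearest to Sox9. Genes needed to name a small count, neighbours of the 9 genes, and the receptor genes Acvr1b and Acvr1c were added after their values were seen. From 1 list, 1 gene is not reported here.

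The alternatives were other pseudocounts (0.1 and 0.5), no filter, a filter at 5 RPKM, 3 scalings between libraries, a replicate block, limma without the trend, summed rows for a repeated symbol, and leaving out each library. A filter on the control libraries and the fit relative to Inha were added after the data were seen.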

Additional observations from a re-analysis of the deposited data

How the results depend on the processing

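Each of the 8 genes tested was called higher in every setting that tested it, and Fshr was tested without the filter alone. The count of called genes was 8 of 8 as reported, 9 of 9 without the filter, 6 of 6 at 5 RPKM or with 1 RPKM required in both control libraries, and 6 of 6 to 8 of 8 with 1 library left out. The log2 fold change of Gata4 moved most, from 0.68 to 2.03 (2.03 with a pseudocount of 0.1, against 0.91 as reported), and that of Wt1 ran from 1.05 to 1.98, of Sox9 from 1.98 to 2.94 and of Dhh from 0.86 to 1.39, with an adjusted p of at most 0.025 for each of the 9 genes.

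Counts over all genes moved more. In place of 3943 higher and 2776 lower, 7370 were higher without the filter, 1080 were higher and 1629 lower at 5 RPKM, 1663 were lower with an equal RPKM sum, and 2374 were higher with 1 RPKM required in both control libraries, where fewer genes were tested at the stricter filters. With 1 library left out, 2321 to 3115 were higher and 1756 to 2871 lower, over 7637 to 8670 genes that still passed the filter. The cause was not tested. Same-numbered libraries share only a number, with a correlation of their deviations of 0.11 across 9099 genes, and there are 2 pairs. A replicate block gave 3868 higher and 2721 lower and called 8 of 8 of the Sertoli genes. Relative to Inha it added a call for Wt1 (0.35, limma adjusted p = 0.041), with the same limit of the shared Inha error. Relative to Inha, the Sox9 difference was 1.26 to 1.37 without a control library and 1.15 to 1.48 without a knockout library. Of the 5 genes with an estimate of reads, Fshr had the fewest, about 34 in control replicate 1.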
